A study of Mus musculus with 9 samples.

Results

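Fos, Fosb, Fosl1, Fosl2, Jun, Junb, Jund, Atf3, Egr1 and Ier3 were examined as the AP-1 and immediate early genes of mouse tissue labelled choroidal-retinal flat mounts. They were taken by gene symbol from a table of 54532 genes, and each of the 10 symbols matched 1 row. RNA was measured by poly(A) RNA-seq in 9 libraries of C57BL/6 mice, in 3 groups of 3. The Betp-Gel@Ran group was sampled 3 months after an injection of BetP-Gel into the vitreous. The labels do not say whether these mice had CNV before the injection, and ranibizumab, an antibody fragment against VEGF-A, stands in the series' title but not in their treatment label. The CNV group (choroidal neovascularization, titled wet-AMD) is given no age and no time since induction, and its means of induction is not given either. The third group was Untreated. A time is given for Betp-Gel@Ran mice alone, so age and time since treatment cannot be told apart from the treatments. Nothing in the labels ties the 3 libraries of a group to different mice. The p-values therefore speak of how these libraries varied, and part of that variation may be technical.

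AP-1 is a family of dimers of basic leucine zipper proteins: a Jun protein pairs with another Jun, with a Fos protein or with an ATF protein, and the dimer binds short palindromic DNA elements. Many of these genes, and Egr1 and Ier3 beside them, are immediate early genes, whose transcription is switched on within minutes of a growth factor, cytokine or stress signal by factors already present in the cell, and whose short-lived mRNAs decay soon after. In the eye they are known for responses to light, injury and ischaemia, and Jun and Atf3 for axon injury in retinal ganglion cells.

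Values are FPKM, fragments per kilobase of gene length per 1000000 reads, as deposited. A log2 fold change is a difference of group means of log2(FPKM + 1), given with its standard error. This scale understates the change of genes with low FPKM, Fosb and Fosl1 among them. A gene was called when limma's Benjamini-Hochberg adjusted p over 14086 tested genes was under 0.05. Tested genes had at least 1 FPKM in at least 3 libraries, and all 10 members passed. Fosl1 passed through the CNV libraries, since 4 libraries in all reached 1 FPKM, and Fosb passed through 6 libraries, none of them Untreated.

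The libraries held 16990118 to 18753737 reads on genes. The label names choroid and retina, but every library also held RNA of lens, surface epithelium and skeletal muscle. Values of the members are therefore of this mixed tissue, and the libraries differed in its makeup. Summed over 9 lens genes, lens RNA was 476.5 to 1825 FPKM in Betp-Gel@Ran, 13.4 to 42.5 FPKM in CNV and 657.6 to 9901 FPKM in Untreated, the highest being Untreated replicate 3. Surface epithelium markers of cornea and conjunctiva (6 keratinocyte genes) summed to 13501 to 16620 FPKM in Betp-Gel@Ran, 8989 to 10982 FPKM in CNV and 18733 to 21717 FPKM in Untreated. Rod markers, 8 genes of the labelled retina, summed to 1203 to 1674 FPKM in Betp-Gel@Ran, 906.2 to 1083 FPKM in CNV and 2409 to 3520 FPKM in Untreated. Markers of pigment epithelium and choroid, 6 genes, summed to 753.9 to 835.6 FPKM in Betp-Gel@Ran, 734.4 to 1100 FPKM in CNV and 762.7 to 1084 FPKM in Untreated, and none of these markers was at 0 in every library. Summed over 8 microglia and macrophage markers, the range was 629.8 to 792.1 FPKM in Betp-Gel@Ran, 1164 to 1702 FPKM in CNV and 266.1 to 297.8 FPKM in Untreated. Summed over 7 neutrophil markers, it was 30.4 to 159.6 FPKM in Betp-Gel@Ran, 475.6 to 1010 FPKM in CNV and 34.7 to 55.3 FPKM in Untreated. Summed over 6 skeletal muscle genes, of which Tnnc2 was at 0 in every library, muscle RNA was 748 to 899 FPKM in Betp-Gel@Ran, 544 to 914 FPKM in CNV and 3498 to 3915 FPKM in Untreated. In whole-tissue RNA, fewer cells of a type and less RNA per cell cannot be told apart.

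CNV flat mounts carried more AP-1 and immediate early RNA than Untreated ones, but not of every member. Fosb, Fosl1, Jun, Junb, Atf3, Egr1 and Ier3 rose, 7 of 10, and none fell (limma; at an unadjusted p under 0.05 also 7 higher and 0 lower, by limma voom on recovered reads 7 and 0). The 7 include Fosl1, which passed the filter only with CNV libraries, the group where it was high. Of all tested genes 22.5% rose and 22.1% fell, 44.6% in all. The same 7 members were higher in every CNV library than in every Untreated library, against 27.7% of tested genes, and no member was lower in every one, against 26.7%. The median log2 fold change of the 10 members was 0.59, beside 0.01 over all tested genes. Without Untreated replicate 3, the lens-rich library, 6 members rose. All 8 macrophage markers and all 7 neutrophil markers rose with these members. All 5 tested muscle markers, 6 of 9 lens markers, 5 of 6 surface epithelium markers and 7 of 8 rod markers fell. The other surface epithelium marker rose, as did 2 of 5 red blood cell markers. Of 5 Muller glia markers, 2 rose and 1 fell. The part of these shifts in the members' rise was not tested.

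In Betp-Gel@Ran flat mounts, Fosl1, Jun, Atf3 and Egr1 fell relative to CNV, 4 of 10, and none rose (limma; at an unadjusted p under 0.05, 7 lower and 1 higher; by limma voom, 4 lower and 1 higher, Fosl2). The 4, too, include Fosl1, which passed the filter only with CNV libraries. Of all tested genes 8.27% fell and 5.81% rose, 14.1% in all. In 6 members every Betp-Gel@Ran library was lower than every CNV library, against 18.6% of tested genes, and in 1, Fosl2, every one was higher, against 18.3%. The median log2 fold change of the members was -0.38, beside 0.00 over all tested genes. The count of 4 was 2 without CNV replicate 1, and 1 without CNV replicate 2, without Betp-Gel@Ran replicate 2 or without Betp-Gel@Ran replicate 3; in each of these fits fewer of all genes were called too, as few as 126 higher and 320 lower, beside 818 and 1165 with all libraries. All 7 neutrophil markers and 5 of 8 macrophage markers fell in the same comparison. Of 9 lens markers 6 rose, and of 6 surface epithelium markers 4 rose and 1 fell. The part of these shifts was not tested.

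Set against Untreated, Betp-Gel@Ran flat mounts had higher Fosb, Fosl2 and Atf3, 3 of 10, and no member fell (limma; at an unadjusted p under 0.05, 4 higher and 1 lower; by limma voom, 3 and 0). Of all tested genes 16.1% rose and 18.1% fell, 34.2% in all. In 5 members every Betp-Gel@Ran library was above every Untreated library, against 25.3% of tested genes, and in 1, Fos, every one was below, against 25.4%. The median log2 fold change of the members was 0.16, beside -0.01 over all tested genes. All 8 macrophage markers rose in this comparison, with 1 of 7 neutrophil markers higher and 1 lower, and all 5 tested muscle markers and 7 of 8 rod markers fell. Their part was not tested. The comparisons share libraries: Betp-Gel@Ran against CNV and CNV against Untreated both use the CNV libraries, so a low or high CNV library moves both.

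**Figure D1:**
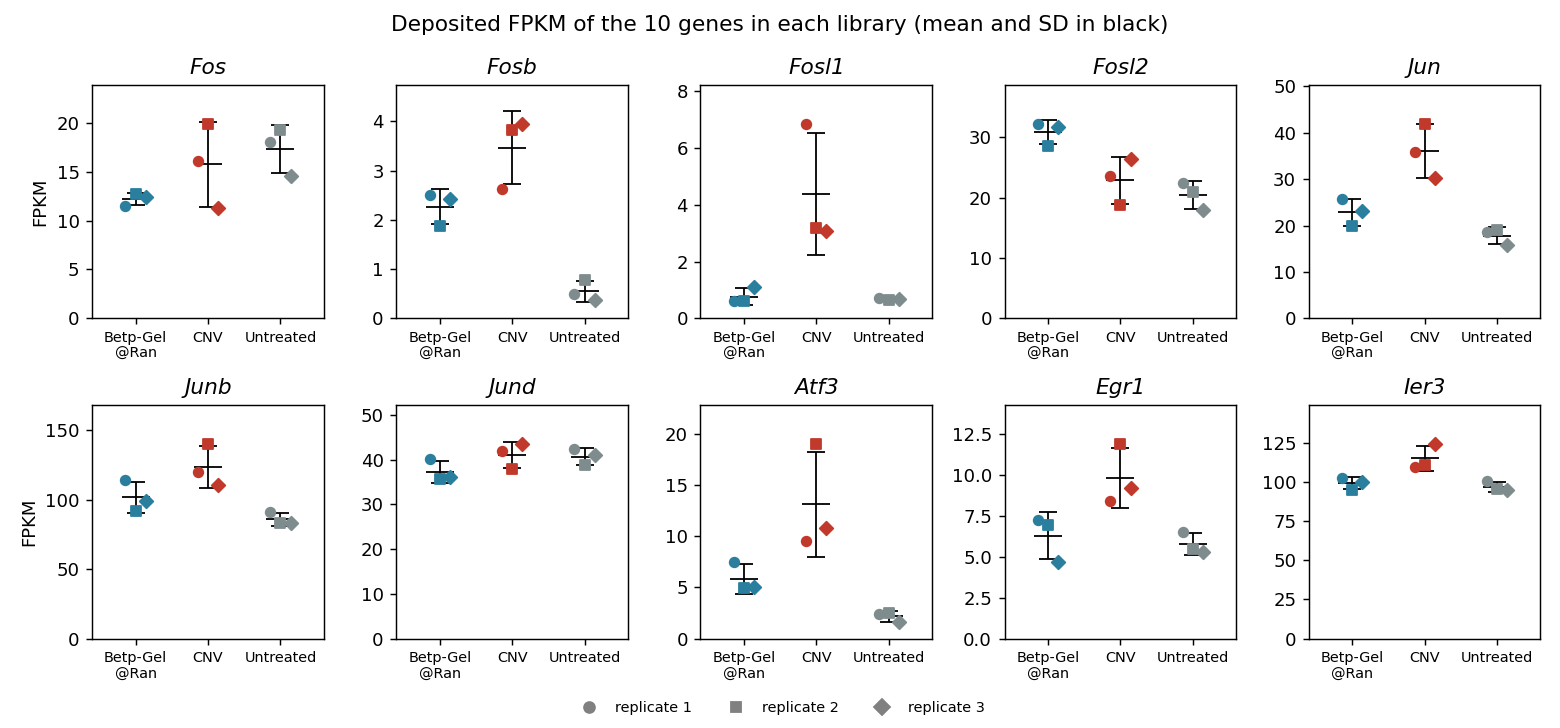
FPKM of the 10 genes (y axis, linear from 0) in each library of the Betp-Gel@Ran, CNV and Untreated groups; marker shapes give the replicate number, and black lines the mean and SD of 3 libraries. CNV libraries stand above Untreated ones in 7 panels, Fosl1 in Betp-Gel@Ran overlaps Untreated, and Fosl2 is highest in Betp-Gel@Ran.

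Fos is the founding member of its family and forms no dimer with itself, so it acts through Jun proteins. The Fos gene (chr12:85473890-85477273, plus strand, mm10) was at 11.5, 12.7 and 12.4 FPKM in Betp-Gel@Ran, 16.1, 19.9 and 11.2 FPKM in CNV and 18.0, 19.2 and 14.5 FPKM in Untreated. The 3 Betp-Gel@Ran libraries lay below all Untreated ones, while the CNV libraries spread over both ranges. In CNV against Untreated, the log2 fold change was -0.15 ± 0.18 (limma adjusted p = 0.517) with a 95% interval of -0.55 to 0.25. That interval lies below the log2 fold changes of Jun and Atf3, and it speaks of the spread of these libraries alone. Betp-Gel@Ran differed from Untreated by -0.46 ± 0.18 (adjusted p = 0.0704). That difference was past the threshold without CNV replicate 3 (adjusted p = 0.0148) or CNV replicate 2 (0.0336), with the 2 groups fitted alone (0.0142) and with the replicate number as a block (0.0368). From CNV, Betp-Gel@Ran differed by -0.31 ± 0.18 (adjusted p = 0.255), and without CNV replicate 3 it passed the threshold (adjusted p = 0.0224).

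Fosb, whose long-lived splice form marks repeated stimulation in neurons, had the lowest mean of the 10 in Untreated tissue. The Fosb gene (chr7:19302696-19310051, minus strand, mm10) was at 2.51, 1.87 and 2.43 FPKM in Betp-Gel@Ran, 2.63, 3.83 and 3.95 FPKM in CNV and 0.50, 0.78 and 0.37 FPKM in Untreated, where 37 to 87 reads lay behind each value. The 3 groups did not overlap. CNV means were 6.30 times those of Untreated (log2 fold change 1.52 ± 0.15, limma adjusted p = 7.52e-05), and on recovered reads, with no added FPKM, voom gave 2.67 (adjusted p = 3.56e-05). Betp-Gel@Ran means were 4.13 times those of Untreated (log2 fold change 1.08 ± 0.15, adjusted p = 0.00099; by voom 2.08, adjusted p = 0.000483). Between Betp-Gel@Ran and CNV, the difference of -0.44 ± 0.15 was not called (adjusted p = 0.078).

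Fosl1, also called Fra-1, lacks the activation domain of Fos and is itself induced by AP-1 in many cell types. The Fosl1 gene (chr19:5447703-5455945, plus strand, mm10) was at 0.60, 0.62 and 1.10 FPKM in Betp-Gel@Ran, 6.86, 3.20 and 3.08 FPKM in CNV and 0.72, 0.66 and 0.69 FPKM in Untreated. That is 18 to 32 reads a library in Betp-Gel@Ran, 96 to 232 reads in CNV and 19 to 21 reads in Untreated. Every CNV library stood above all others, and CNV replicate 1 was the highest by a wide margin. The log2 fold change was 1.60 ± 0.23 in CNV against Untreated (limma adjusted p = 0.000575) and -1.54 ± 0.23 in Betp-Gel@Ran against CNV (adjusted p = 0.00733). Both calls held under each of the 17 alternatives that tested Fosl1, but the gene passed the filter only with CNV libraries. Between Betp-Gel@Ran and Untreated, the difference was 0.06 ± 0.23 (adjusted p = 0.871), with a 95% interval of -0.46 to 0.58.

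The Fosl1 value carries a limit of annotation. Of its 2033 exonic bases in GENCODE M21, 1163 (57.2%) also lie in exons of Ccdc85b on the opposite strand, the library kit named in the labels does not mark strand, and the gene's deposited coordinates differ from that annotation, unlike those of the other 9 members. Ccdc85b averaged 79.9 ± 3.24 FPKM in Betp-Gel@Ran, 97.5 ± 8.02 FPKM in CNV and 111.9 ± 9.20 FPKM in Untreated (SD, n = 3 each). Its log2 fold change was -0.20 in CNV against Untreated (limma adjusted p = 0.101), opposite in sign to Fosl1, and -0.28 in Betp-Gel@Ran against CNV (adjusted p = 0.0633), of the same sign as Fosl1 and smaller.

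Fosl2, or Fra-2, the remaining Fos-related antigen, took a different course. The Fosl2 gene (chr5:32135801-32157842, plus strand, mm10) was at 32.2, 28.6 and 31.7 FPKM in Betp-Gel@Ran, 23.5, 18.7 and 26.4 FPKM in CNV and 22.5, 20.9 and 18.0 FPKM in Untreated. All 3 Betp-Gel@Ran libraries were above all 6 others, and the CNV and Untreated ranges overlapped. Fosl2 rose in Betp-Gel@Ran against Untreated (log2 fold change 0.57 ± 0.13, limma adjusted p = 0.00799). Against CNV, the difference of 0.43 ± 0.13 had an adjusted p of 0.0523, which was under the threshold with a filter of 5 FPKM (0.0423), by voom (0.0309), without Untreated replicate 3 (0.0498) and without CNV replicate 3 (0.017). CNV and Untreated differed by 0.15 ± 0.13 (adjusted p = 0.374).

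Fos and Fosl2 made up most of the Fos family RNA in every library, and their balance differed between groups. Summed over the 4 family genes, the level was 46.1 ± 2.03 FPKM in Betp-Gel@Ran, 46.5 ± 2.36 FPKM in CNV and 39.0 ± 4.68 FPKM in Untreated (SD, n = 3 each). Fos held 24.5%, 29.0% and 26.1% of that sum in Betp-Gel@Ran, 32.8%, 43.5% and 25.2% in CNV and 43.2%, 46.2% and 43.3% in Untreated. Fosl2 held 68.9%, 65.3% and 66.5% in Betp-Gel@Ran, 47.9%, 41.0% and 59.1% in CNV and 53.8%, 50.3% and 53.6% in Untreated. Betp-Gel@Ran tissue thus had a larger Fosl2 share and a smaller Fos share than Untreated tissue in every library, while CNV replicates varied widely. Fosl1 reached 9.29 ± 4.04% of the sum in CNV, beside 1.67 ± 0.563% in Betp-Gel@Ran and 1.79 ± 0.239% in Untreated. No test was run on these shares.

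**Figure D2:**
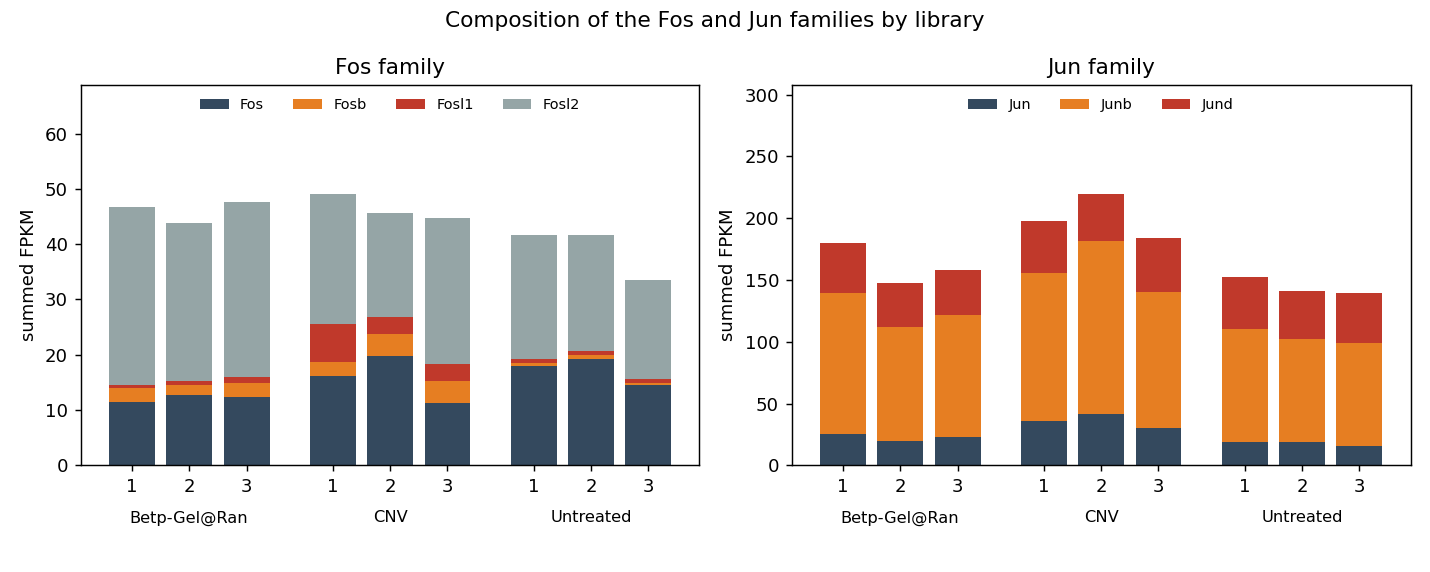
Stacked FPKM (y axis, linear from 0) of the 4 Fos family genes (left) and the 3 Jun family genes (right) in each library, grouped as Betp-Gel@Ran, CNV and Untreated with the replicate number below each bar. The Fosl1 segment is visible in the CNV bars, Fosl2 is the largest segment in each Betp-Gel@Ran bar, and the Jun family sum is highest in CNV.

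Jun, the family's founder and the main substrate of the JNK kinases, rose in CNV. The Jun gene (chr4:95049034-95052222, minus strand, mm10) was at 25.7, 19.9 and 23.1 FPKM in Betp-Gel@Ran, 35.9, 41.9 and 30.2 FPKM in CNV and 18.7, 19.0 and 15.8 FPKM in Untreated. The 3 groups did not overlap, with CNV highest and Betp-Gel@Ran between the others. CNV means were 2.02 times those of Untreated (log2 fold change 0.97 ± 0.13, limma adjusted p = 0.000453). Jun fell in Betp-Gel@Ran against CNV (log2 fold change -0.63 ± 0.13, adjusted p = 0.0207). That call was lost without CNV replicate 1 (adjusted p = 0.0692), CNV replicate 2 (0.0693), Betp-Gel@Ran replicate 2 (0.0716) or Betp-Gel@Ran replicate 3 (0.0596), and with no filter on low values (0.0515). Against Untreated, the difference of 0.34 ± 0.13 was not called (adjusted p = 0.0769), but it passed the threshold under 3 of 18 alternatives, with reads over library totals (0.0439), without CNV replicate 3 (0.0455) and with the 2 groups fitted alone (0.049). The antisense gene Junos shares 232 of Jun's 3189 exonic bases and was at most 0.761 FPKM.

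Junb, which can oppose Jun at some promoters and is induced by the same signals, had the highest FPKM of the Fos and Jun genes in every library. The Junb gene (chr8:84974484-84978718, minus strand, mm10) was at 113.9, 92.2 and 98.9 FPKM in Betp-Gel@Ran, 119.6, 140.0 and 110.3 FPKM in CNV and 91.3, 83.5 and 82.9 FPKM in Untreated. All CNV values and all Betp-Gel@Ran values were above all Untreated values, and the CNV and Betp-Gel@Ran ranges overlapped. In CNV against Untreated the log2 fold change was 0.51 ± 0.11 (limma adjusted p = 0.00487), called under all 18 alternatives. Betp-Gel@Ran differed by -0.27 ± 0.11 from CNV (adjusted p = 0.122) and by 0.24 ± 0.11 from Untreated (adjusted p = 0.127). Prdx2, on the other strand, shares 173 of Junb's 2301 exonic bases and had a log2 fold change of -0.28 in CNV against Untreated (adjusted p = 0.0281), opposite in sign to Junb.

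Jund, the Jun gene with steady expression in resting cells, stayed within a narrow range. The Jund gene (chr8:70698949-70700616, plus strand, mm10) was at 40.1, 35.6 and 36.2 FPKM in Betp-Gel@Ran, 41.9, 37.9 and 43.5 FPKM in CNV and 42.4, 38.7 and 41.0 FPKM in Untreated. The groups overlapped in each pair. CNV against Untreated gave 0.01 ± 0.08 (limma adjusted p = 0.911) with a 95% interval of -0.17 to 0.19, and Betp-Gel@Ran gave -0.14 ± 0.08 against CNV (adjusted p = 0.273) and -0.12 ± 0.08 against Untreated (adjusted p = 0.265). The Jun family sum was 161.8 ± 16.3 FPKM in Betp-Gel@Ran, 200.4 ± 18.1 FPKM in CNV and 144.4 ± 6.92 FPKM in Untreated. Within it, Jun's share was 14.1 ± 0.601% in Betp-Gel@Ran, 17.9 ± 1.35% in CNV and 12.3 ± 1.08% in Untreated, and Jund's was 23.1 ± 0.922%, 20.7 ± 3.23% and 28.2 ± 1.02% in the same groups (SD, n = 3 each).

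Atf3, a stress-induced bZIP protein, pairs with Jun proteins and, as a dimer with itself, represses transcription. On the log2(FPKM + 1) scale, its log2 fold change in CNV against Untreated was the largest of the 10. By ratio of means, Fosl1 (6.34) and Fosb (6.30) stood above Atf3. The Atf3 gene (chr1:191170296-191218039, minus strand, mm10) was at 7.50, 4.94 and 5.08 FPKM in Betp-Gel@Ran, 9.56, 19.0 and 10.8 FPKM in CNV and 2.43, 2.54 and 1.58 FPKM in Untreated. The groups did not overlap, CNV replicate 2 was the highest library, and Betp-Gel@Ran lay between the others. The log2 fold change was 2.11 ± 0.24 in CNV against Untreated (limma adjusted p = 0.000204), a ratio of means of 6.01. It was 1.10 ± 0.24 in Betp-Gel@Ran against Untreated (adjusted p = 0.00885). Against CNV, Atf3 fell in Betp-Gel@Ran by 1.01 ± 0.24 (log2 fold change -1.01, adjusted p = 0.03). This last call was lost without CNV replicate 2 (adjusted p = 0.0707), Betp-Gel@Ran replicate 2 (0.0974) or Betp-Gel@Ran replicate 3 (0.0913), with no filter (0.0703) and with the 2 groups fitted alone (0.0556), and the first 2 held under all 18 alternatives.

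Egr1, a zinc finger factor outside AP-1 that binds GC-rich sites and is induced through serum response factor, rose by a smaller amount. The Egr1 gene (chr18:34859823-34864984, plus strand, mm10) was at 7.25, 6.98 and 4.67 FPKM in Betp-Gel@Ran, 8.41, 11.9 and 9.20 FPKM in CNV and 6.54, 5.51 and 5.33 FPKM in Untreated. CNV libraries were above all others, and the other 2 groups overlapped. The log2 fold change was 0.66 ± 0.16 in CNV against Untreated (limma adjusted p = 0.00928), and 0.09 ± 0.16 in Betp-Gel@Ran against Untreated (adjusted p = 0.709). In Betp-Gel@Ran against CNV, the log2 fold change was -0.58 ± 0.16 (adjusted p = 0.0463), a call that held under 4 of 18 alternatives, with adjusted p from 0.0277 to 0.15.

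Ier3, known for protecting cells from apoptosis and for modulating ERK signalling, was the member with the smallest called rise. The Ier3 gene (chr17:35821684-35822923, plus strand, mm10) was at 102.3, 94.8 and 100.1 FPKM in Betp-Gel@Ran, 109.9, 111.1 and 124.2 FPKM in CNV and 100.4, 95.7 and 94.7 FPKM in Untreated. All CNV values were above the rest, by a ratio of means of 1.19 over Untreated. The log2 fold change was 0.24 ± 0.08 in CNV against Untreated (limma adjusted p = 0.0271), not past the threshold without Untreated replicate 2 (0.0739), Untreated replicate 3 (0.0685) or CNV replicate 3 (0.0723), or with the 2 groups fitted alone (0.0532). Betp-Gel@Ran differed from CNV by -0.21 ± 0.08 (adjusted p = 0.0906) and from Untreated by 0.03 ± 0.08 (adjusted p = 0.78).

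**Figure D3:**
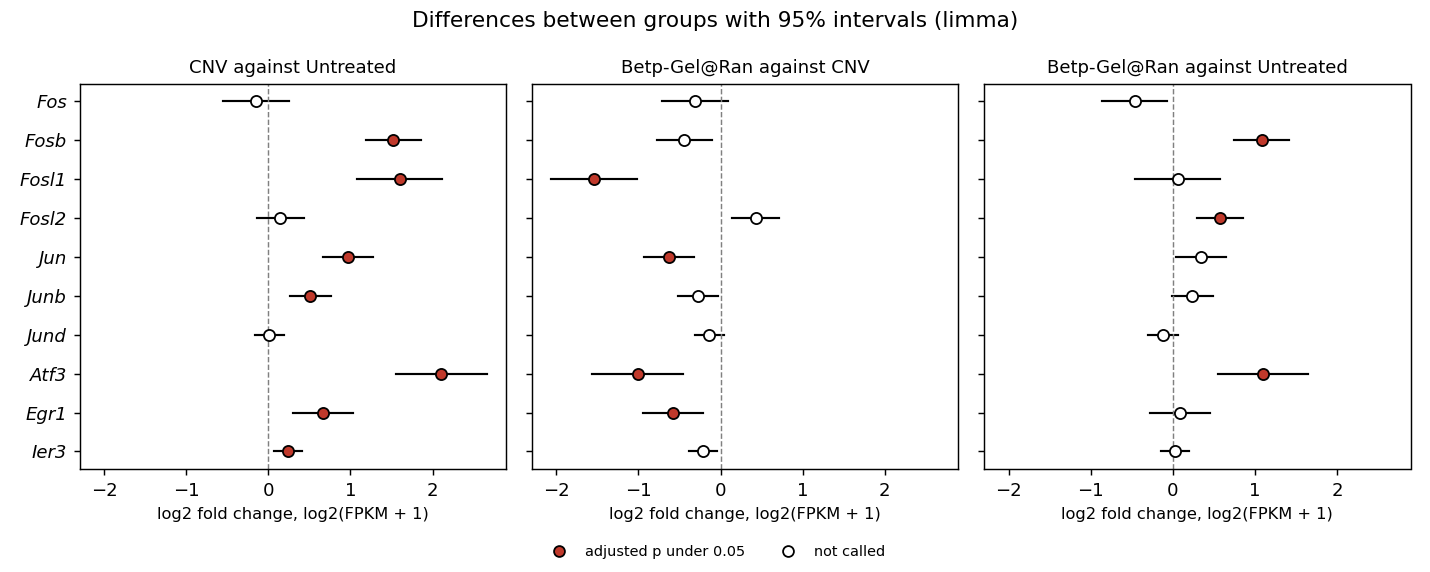
Log2 fold change on the log2(FPKM + 1) scale (x axis) of the 10 genes in CNV against Untreated, Betp-Gel@Ran against CNV and Betp-Gel@Ran against Untreated; points are limma estimates, lines their 95% intervals, and filled points have an adjusted p under 0.05. Filled points number 7, 4 and 3 in the 3 panels.

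By FPKM, which is per length, the order of the members was much alike in all groups at the top and differed further down. Junb and Ier3 were highest in every group, with overlapping ranges in Betp-Gel@Ran and CNV, and Jund came next, with a range in CNV that overlapped that of Jun. In Untreated, Fosl2, Jun and Fos followed with ranges that overlapped, then Egr1, Atf3, Fosl1 and Fosb, with an overlap between Fosl1 and Fosb. In CNV, Jun stood above Fosl2, Fos overlapped Fosl2 and Atf3, and Atf3 overlapped Egr1, with Fosl1 and Fosb below them and overlapping. In Betp-Gel@Ran, Fosl2 stood above Jun with no overlap and Jun above Fos, and Egr1 and Atf3 overlapped.

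Within Betp-Gel@Ran and within Untreated, most members had their highest or lowest value in the same library, while in CNV they were divided. Betp-Gel@Ran replicate 1 was the highest of its group for 8 of 10 members and replicate 2 the lowest for 7. CNV replicate 2 was highest for 5 (Fos, Jun, Junb, Atf3 and Egr1) and CNV replicate 3 for 4 (Fosb, Fosl2, Jund and Ier3). Untreated replicate 3, the library with 9901 FPKM of lens markers, was lowest for 8 members and highest for 0. Without it, Ier3 lost its call in CNV against Untreated, and between Betp-Gel@Ran and CNV Egr1 lost its call (limma adjusted p = 0.057) while Fosl2 gained one.

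Promoter sequences are shown for Fosb, Jun and Atf3, the members whose groups did not overlap in any pair, and for Fos, which did not rise with them. They are the 250 bases before the start in RefSeq (GRCm38.p6), on the gene's strand and 5′ to 3′, with motif matches in capitals. The table used held 8 of the 10 members. In Fosb the capitals mark an EGR site (GCGGGGGCG). In Jun they mark a CCAAT box and the AP-1-like element TGACATCA. In Atf3 they mark ACGTCA, the CRE core TGACGT read from the other strand. In Fos they mark the CRE core TGACGT and a TATA box.
Fosb (chr7:19310046-19310295, minus strand): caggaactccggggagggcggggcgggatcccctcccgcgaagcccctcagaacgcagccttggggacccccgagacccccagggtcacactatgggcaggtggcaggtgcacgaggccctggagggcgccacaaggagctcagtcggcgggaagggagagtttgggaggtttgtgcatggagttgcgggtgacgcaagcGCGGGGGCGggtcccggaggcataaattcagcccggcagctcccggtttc
Jun (chr4:95052223-95052472, minus strand): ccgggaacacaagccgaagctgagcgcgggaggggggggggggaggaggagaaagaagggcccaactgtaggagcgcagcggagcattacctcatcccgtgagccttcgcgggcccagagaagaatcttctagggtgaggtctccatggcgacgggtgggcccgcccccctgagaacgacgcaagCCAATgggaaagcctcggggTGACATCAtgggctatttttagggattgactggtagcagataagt
Atf3 (chr1:191183334-191183583, minus strand): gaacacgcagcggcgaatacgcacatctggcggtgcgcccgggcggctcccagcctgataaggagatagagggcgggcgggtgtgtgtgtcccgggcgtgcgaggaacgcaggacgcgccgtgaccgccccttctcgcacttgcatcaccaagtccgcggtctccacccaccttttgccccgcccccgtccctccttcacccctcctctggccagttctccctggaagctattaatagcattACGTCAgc
Fos (chr12:85473640-85473889, plus strand): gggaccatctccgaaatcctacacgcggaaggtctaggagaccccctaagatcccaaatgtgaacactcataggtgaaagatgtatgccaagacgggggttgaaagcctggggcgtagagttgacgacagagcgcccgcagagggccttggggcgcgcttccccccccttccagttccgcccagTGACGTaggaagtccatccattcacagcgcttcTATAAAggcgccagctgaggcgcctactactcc

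Each promoter was searched on both strands for the AP-1 element TGACTCA, the full CRE TGACGTCA, its core TGACGT, which lies within the full CRE, the element TGACATCA, the TATA box (TATAAA), the CCAAT box, the EGR site GCGGGGGCG and the CArG box. The EGR site of Fosb lies 50 to 42 bases before the start and is held by 2.57% of 32851 promoters of the same length. Fosl2, not shown and not called in CNV against Untreated, holds the same site 79 to 71 bases before its RefSeq start. TGACATCA in Jun lies 45 to 38 bases before the start (2.93% of promoters) and its CCAAT box 65 to 61 bases before it (33.8%). The CRE core of Fos lies 66 to 61 bases before the start, that of Atf3 8 to 3 bases before it (6.47% of promoters), and the TATA box of Fos 33 to 28 bases before it (12.4%). The RefSeq start of Atf3 is 34706 bases downstream of the outermost start in the deposited coordinates, so this window belongs to 1 of its starts. TGACTCA (4.46% of promoters), the full TGACGTCA (1.55%) and the CArG box (1.47%) had no match in these 4 windows, which says only that those letters are not there. A match is a description of the sequence, and no binding was measured.

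Other bZIP genes, which can pair with Fos or Jun proteins or bind related sites, were mostly higher in CNV. Of 22 tested genes on this list of 23, 14 rose and 1 fell in CNV against Untreated, 68.2% beside 44.6% of all tested genes, with a median log2 fold change of 0.42. Batf, an AP-1 factor of lymphocytes and myeloid cells, averaged 1.87 ± 0.257 FPKM in CNV and 0.67 ± 0.360 FPKM in Untreated (SD, n = 3 each; log2 fold change 0.80, limma adjusted p = 0.00272). Maf (0.68, adjusted p = 0.000935) and Maff (0.62, adjusted p = 0.000786) rose as well. Outside CNV, Batf reached 1 FPKM in Betp-Gel@Ran replicate 1 and Untreated replicate 2 alone, so it passed the filter only with CNV libraries. The list was drawn up with earlier results of these data known, as were the lists that follow, so their counts are no independent evidence of a direction.

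Between Betp-Gel@Ran and CNV, 4 of the 22 bZIP genes were lower in Betp-Gel@Ran and none was higher (limma; at an unadjusted p under 0.05, 7 lower and 1 higher; by voom 4 and 0), 18.2% beside 14.1% of all tested genes, with a median of -0.14. Cebpb, an acute-phase and macrophage factor, averaged 11.5 ± 0.891 FPKM in Betp-Gel@Ran and 26.5 ± 6.69 FPKM in CNV (SD, n = 3 each; log2 fold change -1.10, adjusted p = 0.0079), and its relative Cebpd 14.4 ± 2.29 and 28.9 ± 7.05 FPKM in the same groups (-0.94, adjusted p = 0.0131). Batf (-0.64, adjusted p = 0.0277) and Crem (-0.31, adjusted p = 0.0391) were the other 2, calls lost under 5 of 17 alternatives for Batf and 12 of 17 for Crem, with adjusted p of up to 0.113. The count of 4 was 2 without CNV replicate 1, CNV replicate 2, Betp-Gel@Ran replicate 2 or Betp-Gel@Ran replicate 3. It includes Batf, which passed the filter only with CNV libraries. Set against Untreated, 12 rose and 2 fell in Betp-Gel@Ran, 63.6% beside 34.2% of all tested genes, with a median of 0.25, among them Batf3 (0.68, adjusted p = 0.00691) and Atf7 (0.49, adjusted p = 0.00274). Without any 1 of the Untreated libraries or without Betp-Gel@Ran replicate 3, 7 rose. Batf3 passed the filter through Betp-Gel@Ran and CNV libraries, and no Untreated library reached 1 FPKM. Cebpb fell (-0.53, adjusted p = 0.0381), a call lost under 10 alternatives, with adjusted p of up to 0.128 there.

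The kinases and factors that act on AP-1 and immediate early genes showed no common direction in CNV. Of 28 tested genes among 31 listed, 8 rose and 5 fell against Untreated, with a median of 0.08. That is 46.4% of the list, near the 44.6% of all tested genes. Without Untreated replicate 2 the counts were 5 and 3; the 5 that fell were 3 without Untreated replicate 1, Untreated replicate 3 or CNV replicate 1 as well. Srf, the factor that binds the CArG box, averaged 13.7 ± 0.958 FPKM in CNV and 9.32 ± 0.492 FPKM in Untreated (SD, n = 3 each; log2 fold change 0.50, limma adjusted p = 0.000503). Elk3, one of its ternary complex partners, rose by 0.63 (adjusted p = 0.00116). Mapk10, the JNK gene of neurons, averaged 0.52 ± 0.121 FPKM in CNV and 2.59 ± 0.758 FPKM in Untreated (-1.22, adjusted p = 0.000286), and Mapk9, another JNK gene, fell as well (-0.46, adjusted p = 0.002). Rod markers, which belong to the neural retina as Mapk10 does, were lower in the CNV libraries too, and 7 of 8 of them fell. All 5 tested muscle markers fell as well, and the part of these shifts was not tested.

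Of these kinases and factors, 10 rose and 3 fell in Betp-Gel@Ran against Untreated, 46.4% beside 34.2% of all tested genes, and without Betp-Gel@Ran replicate 3, 6 rose. Srf averaged 14.1 ± 0.297 FPKM in Betp-Gel@Ran and 9.32 ± 0.492 FPKM in Untreated (SD, n = 3 each; log2 fold change 0.55, limma adjusted p = 0.000723). Map3k5, the stress kinase ASK1, rose by 0.46 (adjusted p = 0.00191) and Mapk11, a p38 gene, by 0.44 (adjusted p = 0.0117), while Mapk10 had a log2 fold change of -0.68 (adjusted p = 0.009). Against CNV, 2 rose in Betp-Gel@Ran and none fell (limma; at an unadjusted p under 0.05, 4 and 1; by voom 2 and 1), 7.14% beside 14.1% of all tested genes, and 4 rose without CNV replicate 3. These were Map3k5 (0.36, adjusted p = 0.0178; up to 0.0678 without 1 of 3 libraries, CNV replicates 1 and 2 and Betp-Gel@Ran replicate 2) and Mapk10 (0.53, adjusted p = 0.0489; lost under 10 alternatives, with adjusted p of up to 0.146). No rod marker was called in Betp-Gel@Ran against CNV.

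Feedback inhibitors of MAP kinases, themselves induced by the pathways they limit, included 7 that rose and 2 that fell in CNV against Untreated among 14 tested of 16 listed, with a median of 0.30. That is 64.3%, beside 44.6% of all tested genes. The 2 that fell were 1 without Untreated replicate 1, Untreated replicate 3, CNV replicate 1 or CNV replicate 2. Dusp4, a nuclear ERK and JNK phosphatase, was at 2.90, 2.61 and 2.45 FPKM in Betp-Gel@Ran, 8.90, 6.84 and 4.76 FPKM in CNV and 2.41, 2.73 and 2.26 FPKM in Untreated. Its CNV libraries stood above all others. Dusp4 rose in CNV against Untreated (log2 fold change 1.14, limma adjusted p = 0.000635) and fell in Betp-Gel@Ran against CNV (-1.07, adjusted p = 0.00816). Dusp6, an ERK phosphatase, rose by 0.66 (adjusted p = 0.000215) and Errfi1, an inhibitor of the EGF receptor, by 0.68 (adjusted p = 0.00314) in CNV against Untreated, where Dusp8 fell (-0.67, adjusted p = 0.00425).

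In Betp-Gel@Ran, 6 of the 14 feedback inhibitors were higher than in Untreated and 1 was lower, 50% beside 34.2% of all tested genes. Errfi1 averaged 42.5 ± 1.64 FPKM in Betp-Gel@Ran and 22.0 ± 3.43 FPKM in Untreated (SD, n = 3 each; log2 fold change 0.93, limma adjusted p = 0.00118). Dusp16 (0.72, adjusted p = 0.00216) and Dusp5 (0.69, adjusted p = 0.00429) rose and Dusp8 fell (-0.67, adjusted p = 0.00646). Against CNV, 1 rose and 1 fell, Spry1 (0.77, adjusted p = 0.0126; 0.0543 without CNV replicate 1 and 0.0522 without Betp-Gel@Ran replicate 2) and Dusp4. That is 14.3% of the list, near the 14.1% of all tested genes; without CNV replicate 3, 2 rose and 3 fell.

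Other immediate early genes were mixed in direction. Of 40 tested among 45 listed, 16 rose and 7 fell in CNV against Untreated, 57.5% beside 44.6% of all tested genes, with a median of 0.21. Socs3, the feedback inhibitor of gp130 cytokine signalling, was at 3.59, 4.43 and 4.64 FPKM in Betp-Gel@Ran, 18.4, 21.9 and 13.1 FPKM in CNV and 1.85, 1.64 and 1.56 FPKM in Untreated, with no overlap between groups. Its log2 fold change was 2.78 in CNV against Untreated (limma adjusted p = 8e-06), -1.83 in Betp-Gel@Ran against CNV (adjusted p = 0.000807) and 0.96 in Betp-Gel@Ran against Untreated (adjusted p = 0.00243). Myc, the proliferation factor, averaged 3.42 ± 0.614 FPKM in Betp-Gel@Ran, 7.61 ± 0.830 FPKM in CNV and 3.37 ± 0.255 FPKM in Untreated (SD, n = 3 each). Myc rose in CNV against Untreated (0.97, adjusted p = 0.00021) and fell in Betp-Gel@Ran against CNV (-0.97, adjusted p = 0.00306).

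Some immediate early genes ran the other way. Per1, a clock gene that is also induced acutely, was at 6.60, 8.09 and 5.99 FPKM in Betp-Gel@Ran, 4.21, 4.15 and 5.08 FPKM in CNV and 14.1, 12.9 and 13.5 FPKM in Untreated. It fell in CNV (log2 fold change -1.40, limma adjusted p = 2.19e-05) and in Betp-Gel@Ran (-0.88, adjusted p = 0.000504), each against Untreated; the labels give no time of day for any library. Gadd45g, a growth arrest gene, averaged 8.85 ± 1.38 FPKM in Betp-Gel@Ran, 13.0 ± 2.84 FPKM in CNV and 25.7 ± 1.15 FPKM in Untreated (SD, n = 3 each), and fell in both groups against Untreated (-1.45, adjusted p = 0.000254, and -0.95, adjusted p = 0.00107). Ctgf, a matricellular protein gene, fell in Betp-Gel@Ran against Untreated (-1.44, adjusted p = 0.0017).

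For the other immediate early genes, 3 rose and 10 fell in Betp-Gel@Ran against CNV, 32.5% beside 14.1% of all tested genes, with a median of -0.09. Against Untreated, 11 rose and 8 fell in Betp-Gel@Ran, 47.5% beside 34.2%, with a median of 0.02. Nfil3, a bZIP repressor, fell in Betp-Gel@Ran against CNV (-1.09, adjusted p = 0.0221), a call lost under 6 alternatives, with adjusted p of up to 0.0797. Single libraries moved these counts: 6 fell in Betp-Gel@Ran against CNV without CNV replicate 1, CNV replicate 2, Betp-Gel@Ran replicate 2 or Betp-Gel@Ran replicate 3. The 3 that rose were 0 without CNV replicate 1, CNV replicate 2 or Betp-Gel@Ran replicate 2, 1 without either other Betp-Gel@Ran library and 7 without CNV replicate 3. Against Untreated, 7 rose without Untreated replicate 1, Untreated replicate 3 or Betp-Gel@Ran replicate 1 and 6 without Betp-Gel@Ran replicate 3, and 4 or 5 fell without any 1 Betp-Gel@Ran library, Untreated replicate 1 or Untreated replicate 2.

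Of 25 tested genes among 28 known as AP-1 targets from work in other cells, 22 rose and none fell in CNV against Untreated (limma; at an unadjusted p under 0.05 also 22 and 0, by voom 22 and 0), with a median of 1.12; without CNV replicate 3, 1 fell. That is 88% of those tested, beside 22.5% of all tested genes that rose and 44.6% called in all. This list, too, was drawn up with earlier results of these data known, so its counts are no independent evidence of a direction. The count includes 3 genes, Ptgs2, Lif and Mmp13, that reached 1 FPKM in CNV libraries alone and so were tested through the group where they were high. It also includes Plaur and Tnc, which reached 1 FPKM in fewer than 3 libraries outside CNV and so passed the filter only with CNV libraries. Sprr1b, tested and not called, passed in the same way. Timp1, an inhibitor of matrix metalloproteinases, was at 14.3, 10.5 and 8.49 FPKM in Betp-Gel@Ran, 57.3, 69.2 and 29.8 FPKM in CNV and 5.64, 5.77 and 7.05 FPKM in Untreated. Every CNV library stood above all others, and CNV replicate 3 was the lowest of its group. Timp1 had log2 fold changes of 2.82 in CNV against Untreated (limma adjusted p = 0.000129) and -2.08 in Betp-Gel@Ran against CNV (adjusted p = 0.00673).

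Ccl2, a monocyte chemokine, averaged 14.5 ± 6.62 FPKM in CNV and 1.14 ± 0.296 FPKM in Untreated (SD, n = 3 each; log2 fold change 2.74, limma adjusted p = 0.00047). Sprr1a, a cornified envelope gene also induced in injured neurons, was at 286.2, 229.1 and 75.4 FPKM in CNV and 21.9, 31.2 and 13.3 FPKM in Untreated, a log2 fold change of 2.97 (adjusted p = 0.0298). That call was lost under 5 alternatives, without Untreated replicate 1, Untreated replicate 3, CNV replicate 1 or CNV replicate 2 or with the replicate block, with adjusted p of up to 0.0943. Ptgs2, the inducible cyclooxygenase, averaged 0.52 ± 0.263 FPKM in Betp-Gel@Ran and 5.49 ± 1.92 FPKM in CNV (-2.06, limma adjusted p = 0.00142); it is one of the genes that passed the filter through CNV. Plaur, the urokinase receptor, averaged 1.14 ± 0.387 and 6.71 ± 2.88 FPKM in the same groups (-1.79, adjusted p = 0.00609). Plaur, too, passed the filter only with CNV libraries.

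Between Betp-Gel@Ran and CNV, 15 of these 25 were lower in Betp-Gel@Ran and none was higher (limma; at an unadjusted p under 0.05, 18 lower and 1 higher; by voom 15 and 0), with a median of -1.08. That is 60% of those tested, beside 14.1% of all tested genes. The 15 include Ptgs2, Lif, Mmp13, Plaur and Tnc, which passed the filter through CNV libraries. The count was 8 without CNV replicate 2 or Betp-Gel@Ran replicate 2, and without CNV replicate 3, 2 rose. Against Untreated, 9 rose and 1 fell, 40% beside 34.2% of all tested genes, with a median of 0.31, and without Untreated replicate 1, 4 rose. Ccnd1, a cyclin of the G1 phase, averaged 50.4 ± 5.95 FPKM in Betp-Gel@Ran and 25.7 ± 0.636 FPKM in Untreated (SD, n = 3 each; 0.94, limma adjusted p = 0.00147). Mmp3, a matrix metalloproteinase (0.69, adjusted p = 0.00955), and Hbegf, an EGF receptor ligand (0.67, adjusted p = 0.00548), rose too, and Ccl2 rose by 1.09 (adjusted p = 0.0453), a call lost under 9 alternatives, with adjusted p of up to 0.184. Macrophages and neutrophils also make several of these genes. Of their markers, 5 of 8 and 7 of 7 fell in Betp-Gel@Ran against CNV, while against Untreated 8 of 8 macrophage markers rose and the neutrophil markers were divided; their part was not tested.

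Egr1's known targets and its corepressors were 8 listed genes, of which 6 were tested. In CNV against Untreated, 4 rose and 1 fell, 83.3% beside 44.6% of all tested genes, with a median of 0.50. Tnfrsf1b, a TNF receptor, averaged 3.16 ± 0.695 FPKM in Betp-Gel@Ran, 6.54 ± 2.06 FPKM in CNV and 0.93 ± 0.0776 FPKM in Untreated (SD, n = 3 each), and rose in CNV (log2 fold change 1.93, limma adjusted p = 6.25e-05) and in Betp-Gel@Ran (1.10, adjusted p = 0.00235), each against Untreated. Nab1, an Egr corepressor, rose in CNV (0.63, adjusted p = 0.000254) and in Betp-Gel@Ran (0.46, adjusted p = 0.00245). Against CNV, 1 rose and 2 fell in Betp-Gel@Ran, 50% beside 14.1% of all tested genes, counts that were 0 and 0 without CNV replicate 1, CNV replicate 2 or Betp-Gel@Ran replicate 2. Against Untreated, 4 rose and none fell (limma; at an unadjusted p under 0.05 also 4 and 0, by voom 4 and 0), 66.7% beside 34.2% of all tested genes.

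**Figure D4:**
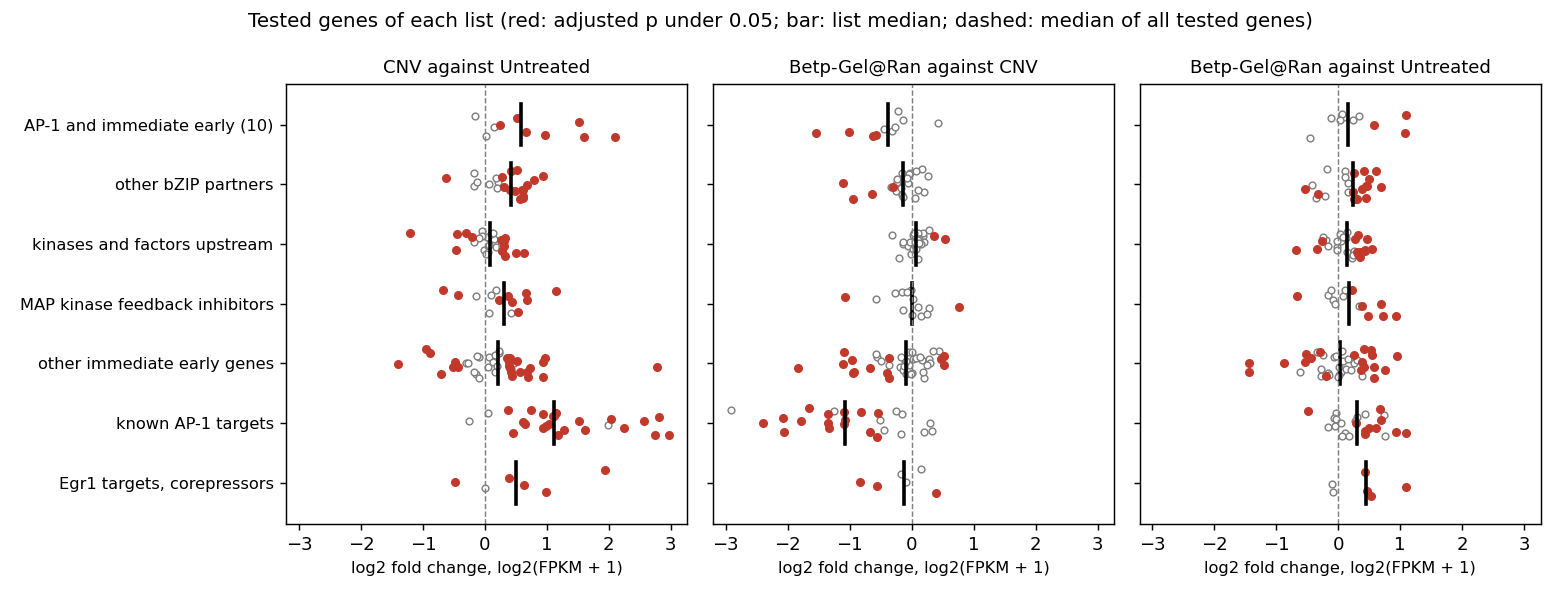
Log2 fold change on the log2(FPKM + 1) scale (x axis) of each tested gene in the 10 AP-1 and immediate early genes and 6 related lists, for the 3 comparisons; filled red points have an adjusted p under 0.05, thick bars are list medians and the dashed line is the median of all tested genes. Known AP-1 targets lie furthest to the right in CNV against Untreated (median 1.12) and furthest to the left in Betp-Gel@Ran against CNV (median -1.08). The lists were drawn up with earlier results of these data known.

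For each member called in CNV against Untreated, the 3 tested genes with the most similar profile over the 9 libraries were found by the root mean square difference of log2(FPKM + 1) after centring each gene. For Atf3 these were Trem2, a microglial and macrophage receptor, at 0.18, then Neurl3 and Ptafr. For Fosb they were Sash3, an adaptor of lymphoid and myeloid cells, at 0.16, then Cybb, a subunit of the phagocyte oxidase, and Trpm6. Trem2 averaged 3.98 ± 0.464 FPKM in Betp-Gel@Ran, 8.26 ± 2.91 FPKM in CNV and 1.22 ± 0.178 FPKM in Untreated (SD, n = 3 each), beside 5.84 ± 1.44, 13.1 ± 5.12 and 2.18 ± 0.524 FPKM for Atf3 in the same groups. For Fosl1, the nearest were Gpx2, Tigit and Calcb (Gpx2 at 0.11). For Jun they were Rnf128, Ncapg2 and Pik3r5 (Rnf128 at 0.07), and for Junb, Mfsd12 and Marcks among others (Mfsd12 at 0.05). For Egr1, the nearest were Rpl34-ps1, a pseudogene whose reads may be shared with its parent gene, Adora2b and Tmigd1. For Ier3 they were Ust, Gm20257 and Insig2. Among these genes, Gpx2, Tigit, Calcb, Ncapg2 and Pik3r5 reached 1 FPKM in CNV libraries alone. They were thus tested through the group where they were high, and their likeness to Fosl1 or Jun is no independent evidence of a shared rise. All neighbours named here were picked as the nearest of all tested genes, so their likeness does not show which cells held the members' RNA.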

How the data were processed

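RNA of choroidal-retinal flat mounts was taken up in Trizol and poly(A)-selected, per the labels' protocols, and 1 table of FPKM for 54532 genes in 9 libraries was deposited by the authors. Per the submitters' processing notes, HTSeq 0.6.0 and the mm10 build were used. The aligner and the strand setting are not given in the sources used here. FPKM times gene length gave whole reads for 100% of values (within 0.05), with 16990118 to 18753737 reads per library, so low values rest on few reads. The depth in the authors' FPKM was 0.946 to 1.057 of each library's own total. Replicates of a group differed by a chi-square of 8.34 to 43.7 per gene, above sampling noise.

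All 9 libraries were fitted together on log2(FPKM + 1) with limma 3.58.1 (trend and robust options, statmod 1.5.0, R 4.3.3), two-sided, over the 14086 genes that reached 1 FPKM in 3 or more libraries, with Benjamini-Hochberg adjustment and a threshold of 0.05. The 10 members, all lists and the tests were chosen with earlier results of these data known. From each list, up to 4 called genes with the largest absolute log2 fold change were named per comparison; some genes these rules pick are not reported here. The alternatives were an added 0.1 FPKM, every gene kept, genes of 5 FPKM or more, only the 2 groups compared, no trend or robust option, the replicate block, FPKM over its sum, reads over each library's total, limma voom on recovered reads, and each library left out. Promoters came from a RefSeq table (GRCm38.p6), gene overlaps from GENCODE M21. Of 31 kinases and factors listed, 29 were found by symbol.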

Additional observations from a re-analysis of the deposited data

How the results depend on the processing

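Of the members' log2 fold changes under 18 alternatives, 170 kept direction and call in CNV against Untreated, 4 lost the call (all Ier3) and 4 changed sign; in Betp-Gel@Ran against CNV 149 kept both, 24 lost the call and 5 gained one; in Betp-Gel@Ran against Untreated 169 kept both, 7 gained a call and 2 changed sign. The sign changes were of small, uncalled differences. In CNV against Untreated, leaving out 1 library gave Jund -0.028 to 0.069, below 0 without Untreated replicate 2, CNV replicate 1 or CNV replicate 3, and Fos -0.33 to 0.057, above 0 without CNV replicate 3. In Betp-Gel@Ran against Untreated it gave Egr1 -0.01 to 0.26, below 0 without Betp-Gel@Ran replicate 1, and Fosl1 -0.072 to 0.12, below 0 without Betp-Gel@Ran replicate 3.

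In Betp-Gel@Ran against CNV, 1 member was lower with no filter and 2 with only the 2 groups compared, and 1 was higher with a filter of 5 FPKM or by voom. In Betp-Gel@Ran against Untreated, 1 was lower, Fos, with only the 2 groups compared or with the replicate block. Leaving out 1 library, the members higher and lower were 6 to 7 and 0 to 0 in CNV against Untreated, 0 to 1 and 1 to 4 in Betp-Gel@Ran against CNV, and 3 to 4 and 0 to 1 in Betp-Gel@Ran against Untreated. The cause of these changes was not tested.

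Over all genes, 3166 rose and 3115 fell in CNV against Untreated, 818 and 1165 in Betp-Gel@Ran against CNV, and 2265 and 2548 in Betp-Gel@Ran against Untreated. With a filter of 5 FPKM, which tests fewer genes, 1735 rose in CNV against Untreated and 1337 in Betp-Gel@Ran against Untreated. In Betp-Gel@Ran against CNV, 263 rose and 590 fell with no filter, 537 and 652 with only the 2 groups compared, and 523 rose with the replicate block. In Betp-Gel@Ran against Untreated, 1596 fell with FPKM over its sum. Without 1 library, the ranges were 2593 to 3127 higher and 2513 to 3075 lower, 126 to 1457 and 320 to 1758, and 1438 to 2482 and 1760 to 2647 in the same order. The higher share of all calls was 50.4% in CNV against Untreated, 60.2% with FPKM over its sum and 62.5% with reads over each library's total; in Betp-Gel@Ran against Untreated it was 47.1%, 63.6% and 58.9%.

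Replicate numbers are shared by the groups. Deviations of same-numbered libraries from their group means had correlations of -0.15 to 0.08, and those of differently numbered libraries -0.19 to 0.17. These values show no pairing by number, but with 3 libraries per group they cannot exclude a shared batch. With the replicate block, Fos in Betp-Gel@Ran against Untreated passed the threshold (limma adjusted p = 0.0368) and Egr1 in Betp-Gel@Ran against CNV did not (0.0503). Fosb and Fosl1 rest on few reads in Untreated, and their log2 fold changes in CNV against Untreated ranged from 1.44 to 2.67 and from 1.29 to 2.55 over the alternatives.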
